A study of Mus musculus with 6 samples.

Results

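The hexose transporters of the Slc2a family and ketohexokinase (Khk) were followed in NIH3T3 cells, an immortalized line of mouse embryonic fibroblasts, by bulk RNA-Seq of poly(A) RNA. The 9 genes Slc2a1, Slc2a3, Slc2a4, Slc2a5, Slc2a6, Slc2a8, Slc2a10, Slc2a12 and Khk were taken by symbol from the 55401 genes counted, after earlier results of these data were known, and their read counts scaled to library size chose them. The levels and fold changes of these 9 genes are therefore given as a description. How many of them passed the limit used for all genes is stated for each comparison, with settings under which this changed. Neither is evidence about them. The study asked which transcripts the TAZ-CAMTA1 (TC) fusion protein changes, and whether aurintricarboxylic acid (ATA), a small molecule put forward to break up the binding of TAZ to TEAD, reverses the change. TC joins the transcriptional co-activator TAZ to CAMTA1, is the fusion of the vascular sarcoma epithelioid hemangioendothelioma, and acts through the TEAD family of DNA-binding proteins. Empty vector cells given the vehicle DMSO (EV) make up 2 libraries, cells that express TC and were given DMSO (TC) make up 1, and cells that express TC and were given 10 µM ATA (TC + ATA) make up 3. In all 3 groups the cells were seeded for 16 h and then treated for 48 h. Whether the TC cells were 1 clone or a pool, and which promoter drove the construct, are not given in the sources used here, and EV cells with ATA were not analysed here.

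Glucose and fructose cross the cell membrane through facilitative carriers of the Slc2a (GLUT) family, which let a hexose run down its concentration gradient. Slc2a1 and Slc2a3 encode glucose carriers of the cell surface, Slc2a4 encodes the carrier that insulin brings to the surface of muscle and fat cells, and Slc2a5 encodes the fructose carrier best known from the small intestine. Once inside, glucose is trapped by hexokinases, whereas fructose is phosphorylated mainly by ketohexokinase, the product of Khk, in liver, gut and kidney.

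Library totals ran from 58471484 to 74413193 counts. Values are in CPM, that is, counts per library scaled to a common library size after TMM normalization, and 3 counts, the level below which a gene was treated as not detected, came to 0.0393–0.0528 CPM. All 6 fibroblast markers had a mean of at least 1 CPM, and their sum was 13444 and 11896 CPM in EV, 16888 in TC and 15888–16942 in TC + ATA. Collagen and vimentin transcripts carry most of that sum, and 2 of the 6 were lower in TC than in EV, Thy1 (mean 193 CPM in EV, 69.6 in TC and 82.1 in TC + ATA, log2 fold change -1.47 in TC versus EV, edgeR adjusted p = 1.03e-05) and Pdgfrb (110, 97.3 and 138 CPM, not past the limit in TC versus EV). The epithelial, endothelial and adipocyte lists each had 0 of 4 markers at that level, with sums of 0.105–0.494, 1.51–3.44 and 0.380–1.14 CPM. The endothelial sum was at most 2.22 CPM in EV, 3.44 in TC and 2.66–3.23 in TC + ATA. Of its markers, Cdh5 was called higher in TC versus EV (log2 fold change 1.55, edgeR adjusted p = 0.039). Kdr was called higher in TC + ATA versus EV (1.13, edgeR adjusted p = 0.0349), and Pecam1 and Tek were called in neither. Ckm and Des, 2 of 4 skeletal muscle markers, were present (list sum 98.0–133 CPM in EV, 127 in TC and 145–177 in TC + ATA), and 3 of 4 blood cell markers were above 1 CPM (8.90–9.14, 6.25 and 4.43–9.04). The blood cell sum hides unlike genes. Ptprc ran from 0.282 to 5.33 CPM within TC + ATA and was not called against EV, nor was Cd68. Csf1r was called lower in TC + ATA versus EV (log2 fold change -1.27, edgeR adjusted p = 0.00709). The part of these lists in the results was not tested. As a check of the labels, Wwtr1, which encodes TAZ, was at 110 and 104 CPM in EV, 139 in TC and 131, 129 and 131 in TC + ATA (TC versus EV, log2 fold change 0.37, SE 0.0782, edgeR adjusted p = 0.00697). Camta1 did not pass the test (0.16, SE 0.128, edgeR adjusted p = 0.411), and gene counts do not separate the construct from the endogenous genes. In bulk samples, fewer cells that express a gene and less RNA per cell cannot be told apart.

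The fructose carrier gene Slc2a5 had the largest fold change of the 8 members in the fit. It had 22 and 24 counts in EV, 2836 in TC and 2201, 2500 and 2566 in TC + ATA. These counts came to 0.294 and 0.315 CPM in EV, 40.9 CPM in TC (exact Poisson 95% interval 39.4–42.4, counting error only) and 38.7, 35.3 and 36.9 CPM in TC + ATA. Both EV libraries were near 0 and all 4 libraries of TC-expressing cells lay together far above them. The mean ratio of TC to EV was 134, a log2 fold change of 7.06 (SE 0.134, 95% interval 6.76–7.36). The 46 EV counts had an exact Poisson 95% interval of 0.223–0.406 CPM (counting error only). On the log2 scale this is wider than the interval of the fold change, whose SE comes from the F statistic. That SE and interval are therefore too narrow. Slc2a5 (ENSMUSG00000028976) is a protein-coding gene on chromosome 4 of GRCm38 (150119283–150144169, plus strand) with 3402 exonic bases, and its exons overlap those of no other annotated gene.

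The promoters of Slc2a5, of Slc2a1, which was also higher in TC-expressing cells, and of Khk, which was lower, are shown so that the starts of the fructose carrier, the main glucose carrier and the fructose kinase can be read side by side. Each is the 250 bases before the RefSeq start in GRCm38.p6, plus strand, 5′ to 3′, at chr4:150119094-150119343, chr4:119108495-119108744 and chr5:30921309-30921558 respectively. Capitals mark the letters CACGTG. For each of the 3 genes, GENCODE places the outermost start inside these 250 bases.
Slc2a5: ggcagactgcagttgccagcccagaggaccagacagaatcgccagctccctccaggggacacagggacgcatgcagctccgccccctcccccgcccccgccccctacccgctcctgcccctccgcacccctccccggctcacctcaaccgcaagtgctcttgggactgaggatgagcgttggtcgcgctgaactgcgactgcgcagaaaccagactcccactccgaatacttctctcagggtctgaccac
Slc2a1: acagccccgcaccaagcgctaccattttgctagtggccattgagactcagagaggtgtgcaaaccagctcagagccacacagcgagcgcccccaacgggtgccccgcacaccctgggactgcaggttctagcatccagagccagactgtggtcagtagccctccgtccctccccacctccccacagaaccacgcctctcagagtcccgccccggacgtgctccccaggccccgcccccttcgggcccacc
Khk: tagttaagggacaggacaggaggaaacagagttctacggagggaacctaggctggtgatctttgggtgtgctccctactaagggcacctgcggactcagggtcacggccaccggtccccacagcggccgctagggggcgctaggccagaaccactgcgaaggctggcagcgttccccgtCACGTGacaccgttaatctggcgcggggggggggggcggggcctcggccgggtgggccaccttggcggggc

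The RefSeq table held a promoter for 7 of the 9 genes, each from 250 bases before to 50 bases after the start. Over these 300 bases, on both strands, the TEAD core CATTCC was in 0 of the 7, against 14.7% of 32851 mouse promoters, and the AP-1 motif TGANTCA was in 0 of the 7, against 7.81%. The E-box CACGTG was in 1 of the 7, against 7.15%, and that match begins 71 bases before the Khk start (position -71). No match says only that these letters are not in the window. The 3 windows of Slc2a5, Slc2a1 and Khk had a GC content of 65.3, 65.3 and 65.7%, and held 15, 18 and 23 CpG pairs.

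**Figure D1:**
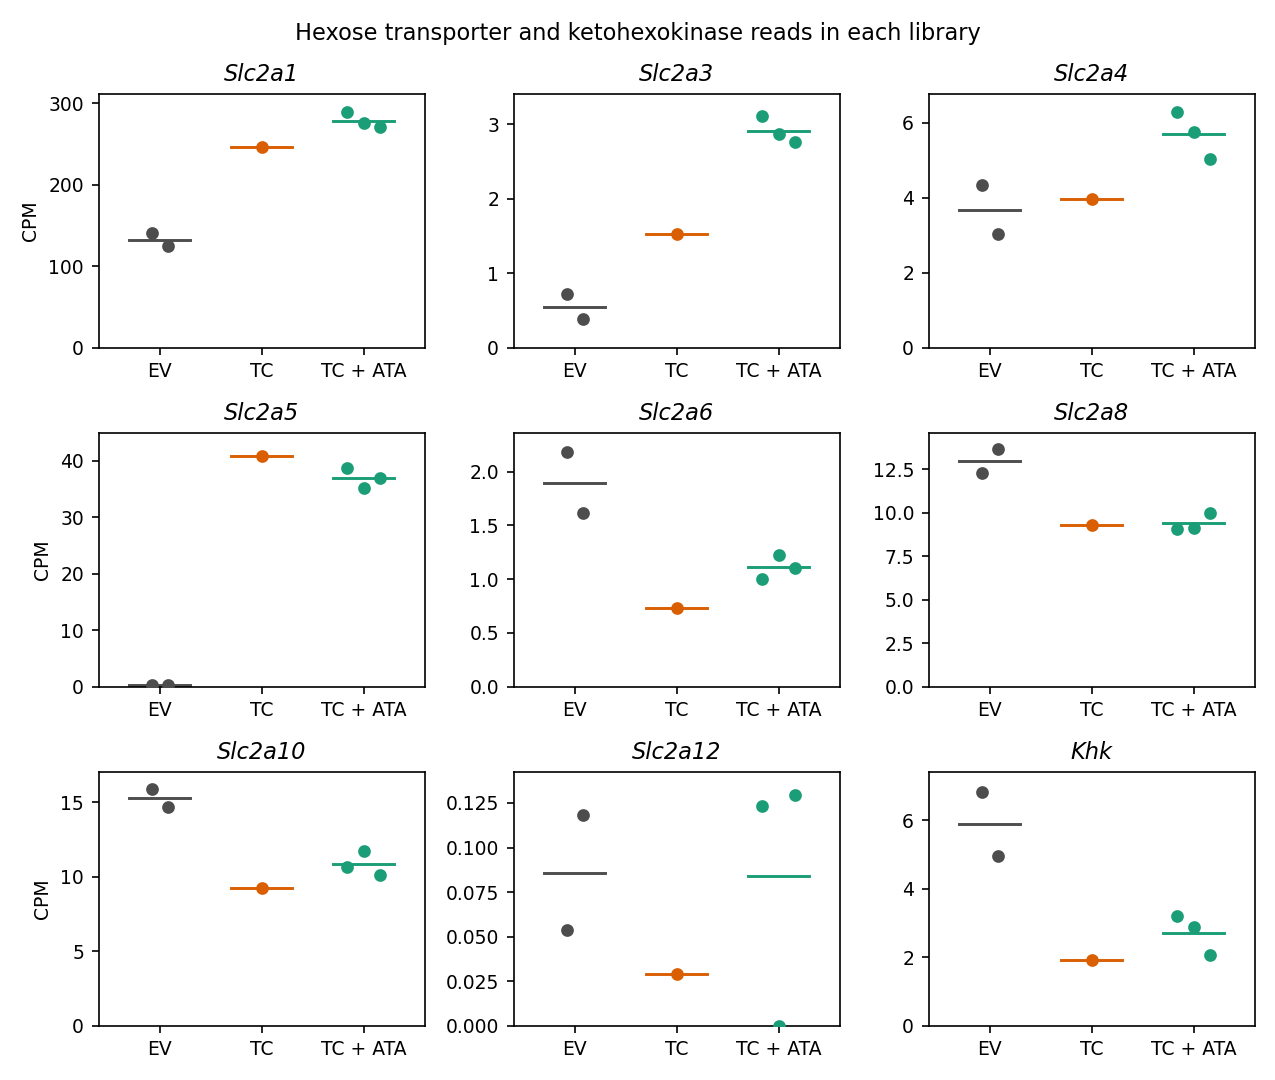
CPM of each of the 9 genes (vertical axes from 0, a different scale in each panel) in the 2 EV, 1 TC and 3 TC + ATA libraries, with 1 point per library and a bar at the group mean. Slc2a5 is near 0 in both EV libraries and at 35.3–40.9 CPM in the other 4 libraries, Slc2a1 and Slc2a3 lie above EV in TC and TC + ATA, and Slc2a6, Slc2a8, Slc2a10 and Khk lie below EV.

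Slc2a1, the carrier of basal glucose uptake in most cells, was the most abundant of the 9 per length of transcript in every library. It was at 140 and 124 CPM in EV, 246 in TC and 289, 275 and 271 in TC + ATA. The groups followed each other without overlap, with EV lowest and TC + ATA highest. Lack of overlap was common over all 18539 genes in the fit. In TC versus EV, 38.9% lay above and 39.95% below without overlap. In TC + ATA versus EV these shares were 28.7% and 30.1%, and in TC + ATA versus TC 30.5% and 32.75%. Nothing is read from a lack of overlap, here or for the other genes named. The TC library stood at 1.86 times the EV mean of 132 ± 11.3 CPM (SD, n = 2), a log2 fold change of 0.90 (SE 0.0935, 95% interval 0.69–1.11). Slc2a1 (ENSMUSG00000028645) also lies on chromosome 4 (119108711–119137983, plus strand). Of its 3506 exonic bases, 105 are shared with Gm12868 on the opposite strand, and the strand setting of the counting is not stated.

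Slc2a3, a high-affinity glucose carrier best known from neurons, had few reads. Slc2a3 lies on chromosome 6 (122727809–122801640, minus strand). There were 54 and 29 counts in EV, 106 in TC and 177, 203 and 192 in TC + ATA, that is, 0.722 and 0.380, 1.53, and 3.12, 2.86 and 2.76 CPM. The order of the groups was the same as for Slc2a1, and the TC + ATA libraries lay close together. Its log2 fold change in TC was 1.47 (SE 0.356, 95% interval 0.66–2.28), and EV replicate 1 had nearly 2 times the level of EV replicate 2.

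Slc2a4, the insulin-responsive carrier (chromosome 11, 69942539–69948188, minus strand), was at 4.33 and 3.03 CPM in EV, 3.96 in TC and 6.30, 5.77 and 5.05 in TC + ATA. TC lay between the EV libraries, and all 3 TC + ATA libraries lay above the other 3. The difference of TC from EV was 0.11 on the log2 scale (95% interval -0.44 to 0.65), and its sign depended on 1 library, at -0.13 without EV replicate 2 and 0.37 without EV replicate 1.

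The other 3 carriers tested were lower in TC than in EV. Slc2a8, an intracellular carrier (chromosome 2, 32972990–32982083, minus strand), was at 12.3 and 13.7 CPM in EV, 9.28 in TC and 9.08, 9.11 and 9.98 in TC + ATA. TC lay within the range of TC + ATA, and both EV libraries lay above all others. Its log2 fold change in TC was -0.49 (SE 0.133, 95% interval -0.79 to -0.18).

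Slc2a10, whose human counterpart is mutated in arterial tortuosity syndrome, lies on chromosome 2 (165503787–165519917, plus strand). It was at 15.9 and 14.7 CPM in EV, 9.21 in TC and 10.6, 11.7 and 10.1 in TC + ATA. Here TC was the lowest library and the TC + ATA libraries were between TC and EV. The TC library stood at 0.603 of the EV mean, a log2 fold change of -0.73 (SE 0.135, 95% interval -1.04 to -0.42).

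Slc2a6, a carrier of internal membranes (chromosome 2, 27021363–27027998, minus strand), had 163 and 123 counts in EV, 51 in TC and 57, 87 and 77 in TC + ATA, or 2.18 and 1.61, 0.735, and 1.00, 1.23 and 1.11 CPM. EV, TC + ATA and TC followed each other downwards without overlap. The log2 fold change in TC was -1.37 (SE 0.355, 95% interval -2.17 to -0.56). Slc2a12, a carrier related to Slc2a10 (chromosome 10, 22645011–22704285, plus strand), had 4 and 9 counts in EV, 2 in TC and 7, 0 and 9 in TC + ATA, which is at or near the limit of 3 counts in every group. It did not pass the filter on low counts and no difference was detectable at this depth, and 407 of its 4237 exonic bases are shared with Tbpl1 on the opposite strand.

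Khk, the first enzyme of fructose breakdown, was lower in the cells that had gained the fructose carrier transcript. It had 511 and 379 counts in EV, 134 in TC and 182, 205 and 144 in TC + ATA. These came to 6.83 and 4.97 CPM in EV, 1.93 in TC and 3.20, 2.89 and 2.07 in TC + ATA. Every library of TC-expressing cells lay below both EV libraries, and TC was the lowest of the 6. The TC library stood at 0.327 of the EV mean of 5.90 ± 1.32 CPM (SD, n = 2), a log2 fold change of -1.61 (SE 0.314, 95% interval -2.32 to -0.90). Khk (ENSMUSG00000029162, chromosome 5, 30921431–30931248, plus strand) gives rise to isoforms KHK-A and KHK-C from alternative exons, which differ in their affinity for fructose, and gene counts do not separate them.

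Across the 8 members that passed the filter on low counts, the TC versus EV comparison by edgeR put 3 (Slc2a1, Slc2a3 and Slc2a5) past an adjusted p of 0.05 on the higher side and 4 (Slc2a6, Slc2a8, Slc2a10 and Khk) on the lower side. The same limit called 14.8% of the 18539 genes in the fit higher and 13.2% of them lower. Since the members were chosen from these values, nothing is read from the count. Without TC + ATA replicate 2, which adds only to the estimate of the spread here, 3 members were past the limit on the lower side and Slc2a8 was not, and the same held in a fit without any TC + ATA library. The median log2 fold change was -0.19 over the members and -0.03 over all genes tested. TC has 1 library, so the spread in every comparison with it was estimated from the EV and TC + ATA libraries, and the labels do not say whether libraries came from separate cultures.

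With ATA, Slc2a5 stayed close to its TC level. It was lower in all 3 ATA libraries, at a mean of 37.0 ± 1.73 CPM (SD, n = 3) against 40.9 in TC, a ratio of 0.905 and a log2 fold change of -0.14 (95% interval -0.35 to 0.06). The interval included 0, and the level stayed 121 times the EV mean. Slc2a8 differed by 0.02 (-0.27 to 0.30). Khk differed by 0.49 (-0.18 to 1.16), Slc2a6 by 0.60 (-0.16 to 1.36) and Slc2a10 by 0.23 (-0.05 to 0.52), each higher in all 3 ATA libraries than in TC and each with 0 inside the interval.

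Slc2a1 and Slc2a3 stood further from EV with ATA than without. Slc2a1 differed from TC by 0.18 (-0.03 to 0.38) and Slc2a3 by 0.93 (0.17 to 1.69), the latter from 1.53 CPM in TC to 2.91 ± 0.182 CPM (SD, n = 3). Slc2a4 differed by 0.52 (0.00 to 1.05). By edgeR, 0 members were past the adjusted limit in either direction, beside 0.426% of all genes called higher and 0.156% called lower, and 2 were higher and 0 lower at an unadjusted p under 0.05. DESeq2 put 0 past the limit. Without EV replicate 1, without EV replicate 2, or in a fit that held no EV library, 2 members (Slc2a1 and Slc2a3) were past it. The EV libraries stood further apart from each other (chi-square per degree of freedom 46.2 over genes) than the TC + ATA libraries did (4.86–5.41), and these fits hold at most 1 of them. Nothing is read from which members passed the limit in any of these fits.

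TC + ATA versus EV uses the same EV libraries as TC versus EV, and the values of both are set side by side. The log2 fold changes from EV were 7.06 in TC and 6.91 in TC + ATA for Slc2a5, 0.90 and 1.08 for Slc2a1, and 1.47 and 2.40 for Slc2a3. For the lower members they were -1.61 and -1.12 for Khk, -1.37 and -0.77 for Slc2a6, -0.73 and -0.50 for Slc2a10, and -0.49 and -0.47 for Slc2a8. Slc2a4 was at 0.11 and 0.63. In TC + ATA versus EV, 4 members were past the edgeR limit on each side, beside 18.0% of all genes called higher and 18.6% called lower, and nothing is read from this count either. Slc2a4 was not past it without EV replicate 2 (log2 fold change 0.40), TC + ATA replicate 1 (0.56) or TC + ATA replicate 2 (0.62). Slc2a6 was not past it without EV replicate 1 (-0.55), without any 1 of the 3 TC + ATA replicates (-0.84 to -0.70), or by DESeq2 (-0.75).

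**Figure D2:**
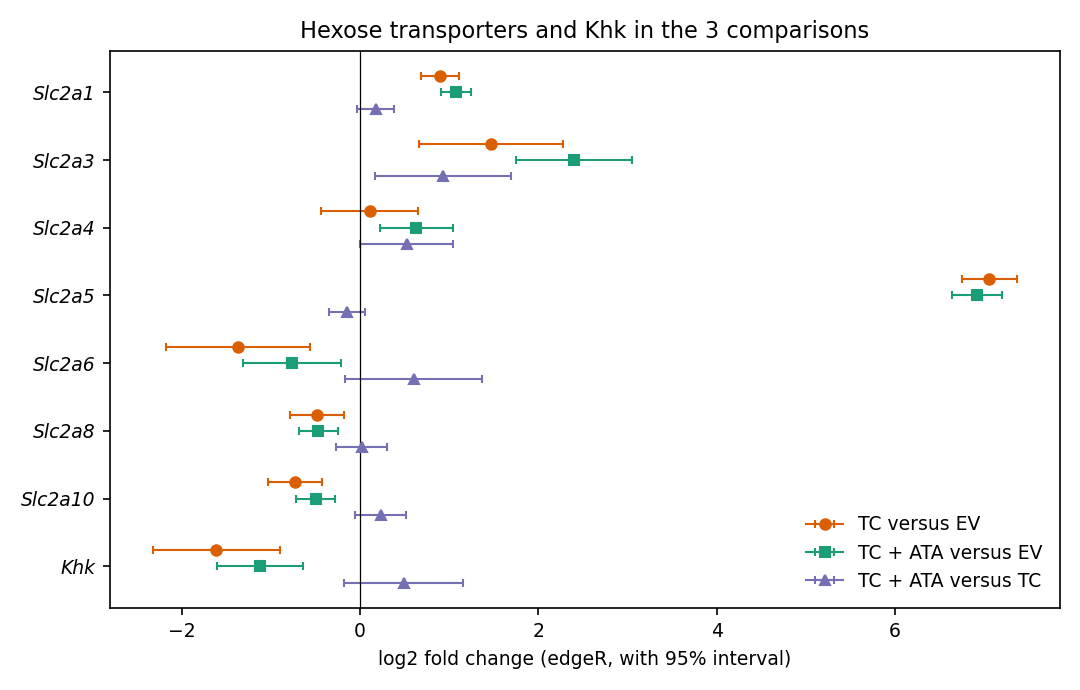
log2 fold change (horizontal axis) with its 95% interval from edgeR for the 8 members in the fit, with circles for TC versus EV, squares for TC + ATA versus EV and triangles for TC + ATA versus TC. Slc2a5 stands alone near 7 against EV, and its triangle lies at -0.14 with an interval that includes 0. Its intervals against EV are narrower than the counting error of EV.

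To compare levels between genes, CPM was divided by the exonic length of each gene in kilobases. On that scale the EV cells carried mostly Slc2a1, at 37.7 ± 3.22 CPM per kb (SD, n = 2). Slc2a10 (4.28 ± 0.250) and Slc2a8 (4.05 ± 0.310) followed and overlapped each other, and Khk was at 3.28 ± 0.732. Below them came Slc2a4 (1.06 ± 0.265) and Slc2a6 (0.591 ± 0.125), then Slc2a5 (0.0895 ± 0.00429) and Slc2a3 (0.0761 ± 0.0333), which overlapped each other, and Slc2a12 was last. In the single TC library, Slc2a1 at 70.2 CPM per kb was followed by Slc2a5 at 12.0, and Slc2a8 (2.89), Slc2a10 (2.58), Slc2a4 (1.14), Khk (1.07), Slc2a6 (0.229), Slc2a3 (0.211) and Slc2a12 (0.00680) came after. In TC + ATA the order was Slc2a1 (79.4 ± 2.63), Slc2a5 (10.9 ± 0.509), Slc2a10 (3.03 ± 0.229), Slc2a8 (2.93 ± 0.159), Slc2a4 (1.64 ± 0.181), Khk (1.52 ± 0.326), Slc2a3 (0.402 ± 0.0251), Slc2a6 (0.347 ± 0.0350) and Slc2a12 (SD, n = 3). Of these neighbours, Slc2a10 and Slc2a8, Slc2a4 and Khk, and Slc2a3 and Slc2a6 overlapped each other.

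The make-up of the family transcripts was then taken over 12 Slc2a genes (the 8 carriers among the members with Slc2a2, Slc2a7, Slc2a9 and Slc2a13). Their summed level was 50.8 and 45.8 CPM per kb in EV, 89.7 in TC and 103, 98.0 and 96.8 in TC + ATA, so the sum in TC-expressing cells lay above both EV libraries in every case. The share of Slc2a1 was between 77.3 and 80.3% in every library, at 78.0% ± 0.901 in EV (SD, n = 2), 78.2% in TC and 80.1% ± 0.220 in TC + ATA (SD, n = 3). Slc2a5 took 0.186% ± 0.0227 of the sum in EV, 13.4% in TC and 11.0% ± 0.335 in TC + ATA. Slc2a8 went from 8.43% in EV to 3.22% in TC and 2.96% in TC + ATA, and Slc2a10 from 8.87% to 2.87% and 3.06%. These are shares of transcript reads per length, not of carrier protein at the surface.

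**Figure D3:**
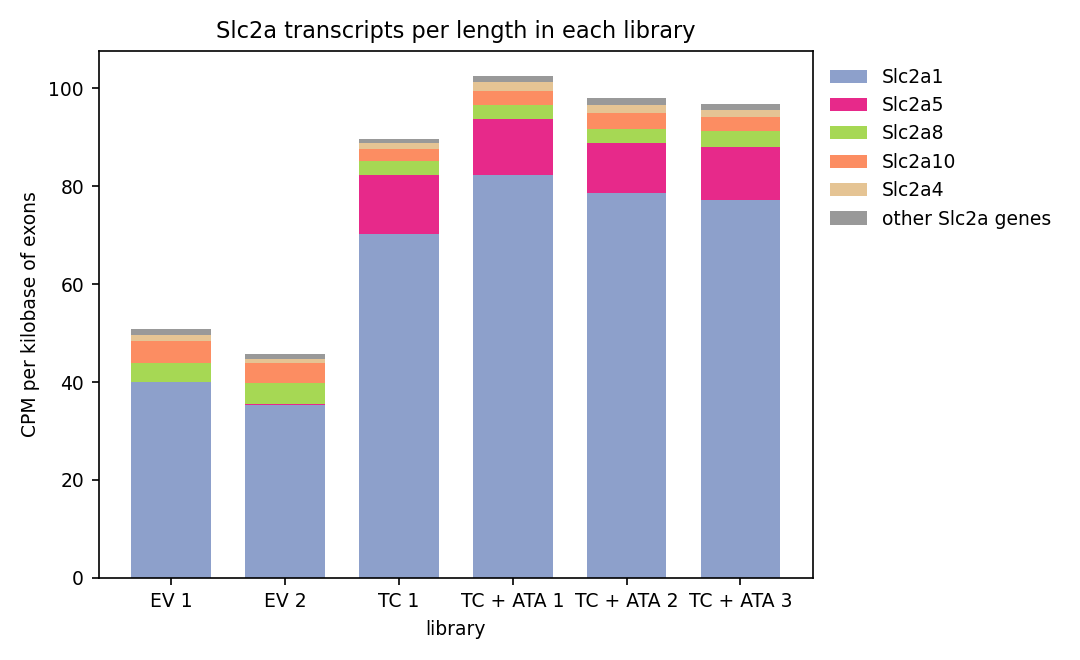
Stacked bars of CPM per kilobase of exons (vertical axis from 0) for the Slc2a genes in each of the 6 libraries, with the genes not named in the legend summed as other. The bars of the 4 libraries of TC-expressing cells reach 89.7–103 against 45.8 and 50.8 in EV, and the Slc2a5 segment, hardly visible in EV, takes 10.6–13.4% of them.

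The other genes of hexose entry were taken from 5 lists of 52 genes: other Slc2a family genes, sodium-linked and other sugar transporters, hexose kinases, the polyol pathway with fructose use, and regulators and traffickers of the carriers. These lists, like the members, were chosen with earlier results of these data known. The adjusted p-values of their genes are therefore given as a description, and nothing is read from the counts of genes called. Of the 40 that passed the filter on low counts, 11 rose and 8 fell in TC versus EV by edgeR, beside 14.8% and 13.2% of all genes, and 21 did not pass the test. The median log2 fold change over the 40 was 0.04 (0.05 without Slc5a4a, which had 0 counts in TC), against -0.03 over all genes. In a fit without the TC + ATA libraries, 7 rose and 3 fell.

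Both enzymes of the polyol pathway, which turns glucose into fructose inside the cell, rose in TC. Akr1b3, the aldose reductase that reduces glucose to sorbitol, was at 894 and 732 CPM in EV, 1286 in TC and 1607, 1357 and 1549 in TC + ATA (TC versus EV, log2 fold change 0.66, SE 0.141, edgeR adjusted p = 0.00756). Sord, the sorbitol dehydrogenase that oxidizes sorbitol to fructose, was at 60.7 and 54.4 CPM in EV, 136 in TC and 172, 164 and 158 in TC + ATA (1.24, SE 0.0914, edgeR adjusted p = 1.62e-05). Both were above EV in all 4 libraries of TC-expressing cells, the opposite order from Khk. Mpi, which interconverts the mannose and fructose phosphates, rose by 1.12 (SE 0.104, edgeR adjusted p = 6.36e-05), and Aldoa, the aldolase of muscle and most other cells, by 0.64 (SE 0.139, edgeR adjusted p = 0.00814). Aldoa is listed under 2 identifiers, of which the one with the larger count was used. In the fit without the TC + ATA libraries, Akr1b3 and Aldoa did not pass (adjusted p = 0.0661 and 0.0667), at fold changes of 0.66 and 0.64. Of the 11 genes tested in this list 5 rose and 2 fell, beside 14.8% and 13.2% of all genes. Those that fell were Akr1b8 and Gfpt2, and Akr1b8 has close paralogs that may share its reads.

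Of the 6 hexose kinases tested, 3 rose and 1 fell, beside 14.8% and 13.2% of all genes. Hk2, a hexokinase bound to mitochondria, was at 31.9 and 29.6 CPM in EV, 100 in TC and 75.0, 76.0 and 69.4 in TC + ATA (TC versus EV, 1.70, SE 0.0880, edgeR adjusted p = 2.29e-06). TC was the highest library and TC + ATA lay between TC and EV. Adpgk, which uses ADP to phosphorylate glucose, and Galk1, a galactokinase, rose by 0.51 and 0.49 (edgeR adjusted p = 0.00892 and 0.00661), and Galk2, which acts on N-acetylgalactosamine, fell by 0.67 on the log2 scale (edgeR adjusted p = 0.00354). Adpgk did not pass with scaling by library size alone (0.40, adjusted p = 0.0675), and Galk1 did not pass with the replicate number in the edgeR fit (adjusted p = 0.0516).

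Of the 14 regulators and traffickers tested, 1 rose and 5 fell, beside 14.8% and 13.2% of all genes. Txnip, an arrestin-like protein that promotes the removal of Slc2a1 from the surface, was at 62.1 and 63.4 CPM in EV, 23.4 in TC and 38.9, 37.8 and 39.0 in TC + ATA (TC versus EV, log2 fold change -1.42, SE 0.0866, edgeR adjusted p = 5.46e-06). EV, TC + ATA and TC followed each other downwards without overlap. Slc2a1 was lowest in EV and highest in TC + ATA, so the 2 orders were not the reverse of each other. Both genes were higher in TC + ATA than in TC (log2 fold change 0.72 for Txnip and 0.18 for Slc2a1, the latter not past the limit). A link between them was not tested. Of the 3123 exonic bases of Txnip, 606 are shared with Gm15441 on the opposite strand. Its relative Arrdc4 fell by 1.07 on the log2 scale (SE 0.131, edgeR adjusted p = 0.000347). Tbc1d4, which holds Slc2a4 vesicles inside the cell, fell by 0.52 (edgeR adjusted p = 0.0201), and Lnpep, the aminopeptidase that travels with Slc2a4, rose by 0.42 (edgeR adjusted p = 0.00788). Neither passed in the fit without the TC + ATA libraries (adjusted p = 0.0762 and 0.0602).

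Among the sodium-linked and other sugar transporters, 2 of 6 tested rose, beside 14.8% of all genes, and the other 4 did not pass. Slc5a3, the sodium-linked carrier of myo-inositol, rose from 49.0 and 50.7 CPM to 118 in TC (1.25, SE 0.0891, edgeR adjusted p = 1.36e-05). It was at 119, 120 and 107 CPM in TC + ATA, and 159 of its exonic bases are shared with Mrps6 and Gm49711. Slc45a3 rose from 3.04 and 2.85 CPM in EV to 8.89 in TC (1.60, SE 0.130, edgeR adjusted p = 3.04e-05). In TC + ATA it was higher still, at 15.2, 13.8 and 14.3 CPM. Its difference from TC was 0.70 on the log2 scale and not past the limit (edgeR adjusted p = 0.0545). Of its exonic bases, 481 are shared with Gm29103 on the same strand. Of the other Slc2a genes, Slc2a2, the carrier of liver and pancreatic islets, had 0 counts in all 6 libraries. Slc2a9 and Slc2a13 differed between TC and EV by -0.14 and -0.89 on the log2 scale (edgeR adjusted p = 0.806 and 0.115).

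**Figure D4:**
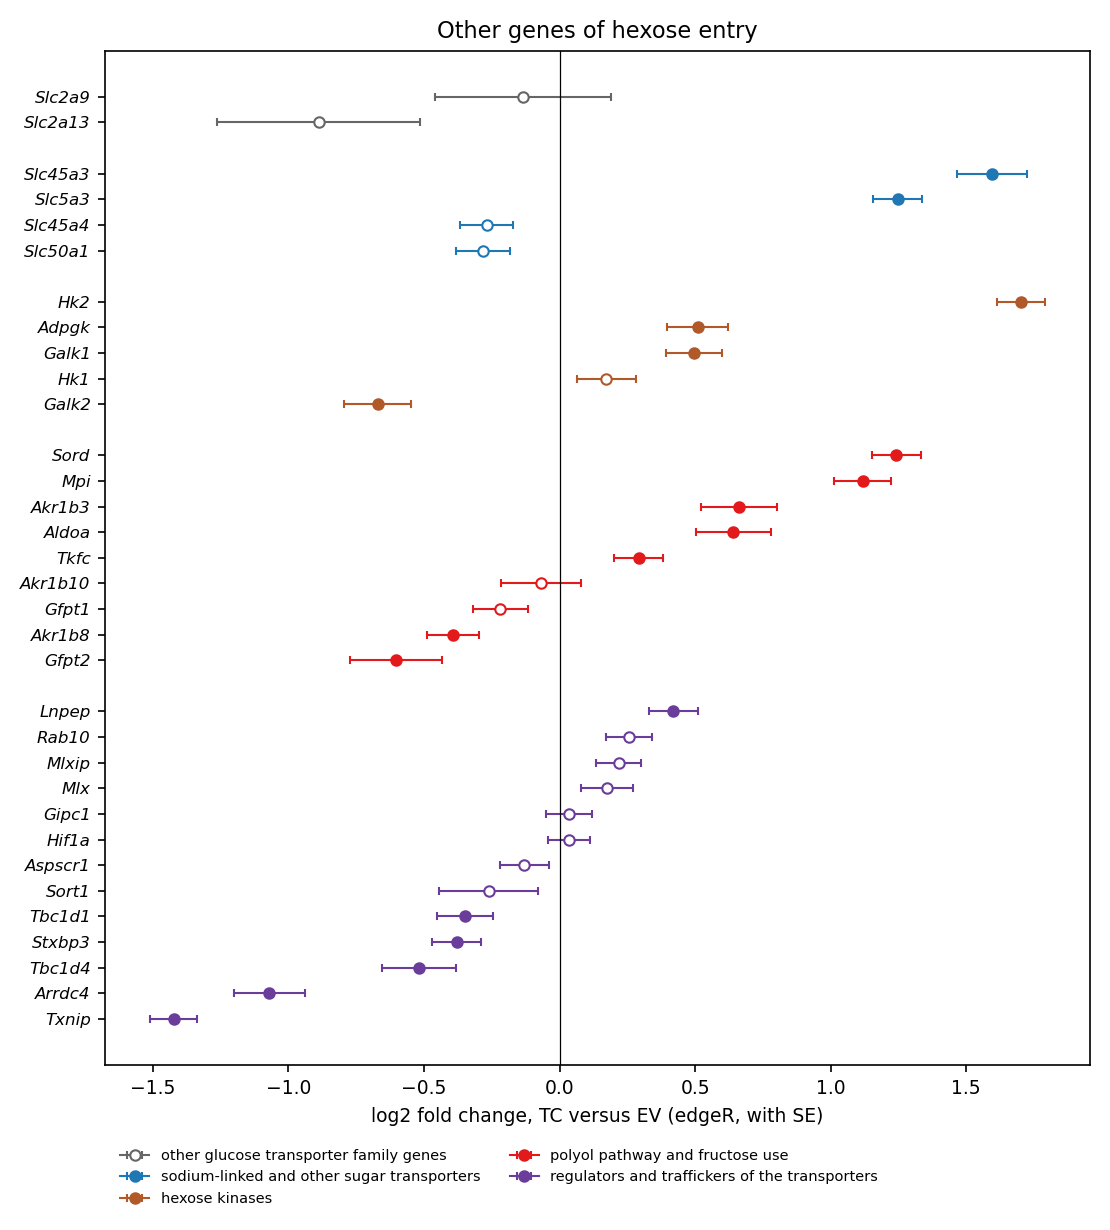
log2 fold change of TC versus EV (horizontal axis) with its SE from edgeR for the list genes with a mean of at least 1 CPM, coloured by list, filled where the adjusted p was at most 0.05 and open where it was not. Hk2, Slc45a3, Slc5a3, Sord and Mpi lie furthest to the right and Txnip and Arrdc4 furthest to the left.

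In TC + ATA versus TC, 1 of the 40 list genes rose (Txnip, log2 fold change 0.72, SE 0.0805, edgeR adjusted p = 0.00759) and 0 fell, beside 0.426% and 0.156% of all genes, with 4 higher and 1 lower at an unadjusted p under 0.05, and 2 higher and 1 lower by DESeq2. Txnip was not past the limit without TC + ATA replicate 1, 2 or 3 (adjusted p = 0.0523, 0.0567 and 0.0816), whereas its fold change stayed between 0.72 and 0.74. In TC + ATA versus EV, 13 rose and 10 fell, beside 18.0% and 18.6% of all genes, and 6 fell without TC + ATA replicate 3. With ATA, Slc45a3 was 2.29 above EV on the log2 scale, Sord and Akr1b3 1.52 and 0.89 above, Hk2 1.26 above, and Txnip 0.70 below.

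Around Slc2a5, the nearest protein-coding gene upstream is Gpr157, whose end lies 13355 bases away. It was at 2.45 and 2.35 CPM in EV, 2.23 in TC and 2.69, 2.84 and 2.34 in TC + ATA, and did not pass the test in TC versus EV (-0.10, 95% interval -0.64 to 0.43, edgeR adjusted p = 0.796). Downstream, 4802 bases away, lies Slc2a7, a family member related to Slc2a5, with 0 and 7 counts in EV, 19 in TC and 6, 15 and 8 in TC + ATA (edgeR adjusted p = 0.161).

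The genes most like Slc2a5 over the 6 libraries, by the smallest root mean square difference of centred log2 CPM among 12711 genes, were Cgn, Serpinb9b and Pdzd2. Cgn, which encodes the tight junction protein cingulin, differed by 0.155 and had a mean of 0.694 CPM in EV, 66.8 in TC and 57.3 in TC + ATA. Serpinb9b, a serpin gene, differed by 0.224 (1.00, 75.7 and 85.4 CPM), and Pdzd2, which encodes a protein with PDZ domains, by 0.268 (0.311, 28.7 and 25.6 CPM). The 6 points share their libraries and scaling, and likeness over them is mostly the gap between EV and the TC-expressing cells. The genes lie on chromosomes 3, 13 and 15, apart from Slc2a5 on chromosome 4.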

How the data were processed

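RNA was sequenced as paired-end poly(A) libraries (NEBNext Ultra II). The authors used HISAT2 (2.2.1 in the submitters' processing notes) for alignment to GRCm38.p6, counted them per gene with featureCounts, and deposited raw counts, 1 file per library. The annotation release and strand setting are not given in the sources used here.

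Of 55401 Ensembl identifiers, 55141 were found in GENCODE M21, which gave symbols, positions and exonic lengths. Counts were scaled by TMM and fitted with edgeR 4.0.16 in R 4.3.3 (filterByExpr, glmQLFit, glmQLFTest, all 6 libraries, group means, Benjamini-Hochberg over 18539 genes, limit 0.05, 3 residual degrees of freedom). Standard errors came from the F statistic and intervals are 95%. For Slc2a5 against EV they are narrower than the counting error of EV. P-values measure only the spread between these libraries, which may be technical. Promoters came from RefSeq.

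The members and the lists were chosen with earlier results of these data known. Named were all members, the construct genes, up to 4 called genes per list and comparison with a mean of at least 1 CPM, ranked by fold change, the neighbours of Slc2a5 and the 3 genes most like it. Akr1b8, Gfpt2, Slc2a2, Slc2a9, Slc2a13 and the single fibroblast, endothelial and blood cell marker genes were named after their values were seen. On simulated TC + ATA versus EV counts, 200 of 200 changed genes among 17667 were called, with 22 unchanged genes. The simulation gave every gene the same spread, and the changed genes were well counted with large changes. It therefore checked only that the code ran as meant. The power for smaller changes, for the spread of these libraries or for comparisons with TC was not tested.

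The 11 alternatives were DESeq2 1.42.0, RLE or library-size scaling, no low-count filter, only the groups compared, a replicate block, and leaving out each replicate of EV and of TC + ATA.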

Additional observations from a re-analysis of the deposited data

How the results depend on the processing

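Under the 11 alternatives, 243 of the members' log2 fold changes moved by less than the spread between replicates and 21 moved further. For Slc2a5 in TC versus EV they ran from 6.95 to 7.11 and for Khk from -1.82 to -1.38. For the named list genes, 305 values kept their side of the limit, 25 lost it and 0 reversed. Scaling by library size shifted the median of all genes by -0.11 in TC versus EV.

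For the list genes in TC versus EV (11 higher, 8 lower), only the groups compared gave 7 and 3, and leaving out a replicate gave 10–14 and 7–10. In TC + ATA versus TC (1 higher, 0 lower), DESeq2 gave 2 and 1, no low-count filter 2 and 1, only the groups compared 4 and 1, and leaving out a replicate 0–4 and 0–1. In TC + ATA versus EV (13 higher, 10 lower), leaving out a replicate gave 9–15 and 6–11. Where a replicate left out was an EV library, the lone EV library was assumed to vary like the TC + ATA libraries, although the 2 EV libraries stood further apart than any pair of those. The cause of these changes was not tested, and the number of libraries in a fit was not separated from which library was left out.

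EV and TC + ATA share replicate numbers 1 and 2, TC shares number 1, and nothing in the labels says that a number marks a shared day or culture. Deviations of same-numbered libraries from their group means were not positively correlated (-0.04 and -0.11 across 18539 genes). With 2 EV libraries the deviation of 1 is the reverse of the other, so these are not independent checks. A shared effect in part of the genes was not tested. With the number as a replicate block, 6 list genes were higher and 4 lower in TC versus EV, 0 were higher in TC + ATA versus TC, and 5 were lower in TC + ATA versus EV, and the members past the limit in TC versus EV went from 3 to 2 on the higher side (without Slc2a3) and from 4 to 2 on the lower side (without Slc2a6 and Slc2a8). In TC + ATA versus EV, Slc2a6 was no longer past it. Of the named list genes in TC versus EV, Galk1, Akr1b3, Aldoa, Tbc1d4 and Lnpep did not pass with the block (adjusted p = 0.0516, 0.0611, 0.0631, 0.0507 and 0.0576).

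Counting error is small for Slc2a1 in every group and for Slc2a5 in TC and TC + ATA. There the number of libraries, 1 for TC, limits the precision. For Slc2a5 in EV, with 22 and 24 counts, counting error also limits the fold changes from EV. For Slc2a12 the depth is the limit.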
